A study of Mus musculus with 2 samples.

Results

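The weak but reproducible accessible regions of mouse hippocampus are short stretches of DNA that DNase I cut above background in both libraries of the study, but that entered neither library's shorter and stricter region list. DNase-seq counts cuts by the enzyme DNase I, which reaches DNA where nucleosomes leave it free. The members were 13586 of the 91553 regions that the longer list of replicate 1 holds on chromosomes 1 to 19, which is 14.8%. The members were chosen by these calls, which rest on measured heights and false discovery rates: each overlapped a longer-list region of replicate 2 by at least 1 bp and touched no shorter-list region of either library. The same rule applied to the rows of replicate 2 gave 13242 of 127692 regions (10.4%), mostly at the same places, so the pair of counts is no independent check. They are called weak shared regions here. They were set beside the 46701 strong shared regions of replicate 1 (46450 rows of replicate 2), which lay in all 4 lists, and beside weak regions of 1 library, which lay in the longer list of that library alone (11504 rows of replicate 1 and 40932 of replicate 2). A further 19762 rows of replicate 1 and 27068 of replicate 2 fitted none of these classes.

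Both libraries came from tissue labelled as a layer of hippocampus of B6CASTF1/J males aged 10 days, first-generation crosses between C57BL/6J and CAST/EiJ mice, and formed the only group, with no treatment or other genotype. The labels number them 1 and 2 as biological replicates, each from a sample of 3 males, and give both the same donor entry. Whether an animal contributed to both is not stated, so differences between libraries measure the spread of these samples only. Whole tissue mixes neurons, glia and vessel cells: a site open in few cells and a site cut rarely in many cells cannot be told apart. The read depth behind each library is unknown here. As a coarse check of the tissue, shorter-list regions lay at promoters of 11 of 11 pan-neuronal genes and of 1 of 13 hepatocyte genes. That hepatocyte gene, Ttr, is also on the list for choroid plexus. Of all coding genes, 13660 of 20807 had such a region. So did 13 of 13 housekeeping genes and 4 of 7 genes of CA1 pyramidal cells. No comparison of conditions was possible, and because measured values chose the members, shares are descriptions without tests. Intervals beside shares are exact binomial ones at 95%. They cover counting error only, and regions of a library are not replicates.

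Accessible DNA outside nucleosomes marks promoters, where transcription starts, enhancers, which act on promoters from a distance, and insulators bound by the zinc-finger protein CTCF, which anchors chromatin loops. A protein sitting on accessible DNA shields it from the enzyme and leaves a footprint. In the developing hippocampus, basic helix-loop-helix factors of the NEUROD and ASCL groups drive neuronal differentiation, nuclear factor I (NFI) proteins act in both neurons and astrocytes, and RFX proteins serve genes of cilia and neurons.

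The sequences of 4 weak shared regions show what they contain. The first pair are the highest distal members with a match to CTCF and to the full NFI site that also held a footprint in both libraries. The last pair lay at the promoters of cell-type marker genes with no shorter-list region. All are reference sequence of the plus strand from RefSeq on GRCm38.p6 (mm10), so they are the C57BL/6J allele and not the CAST/EiJ one. Capitals mark the motif match and every other base is in lower case.
Kcnip3 intron, chr2:127501293-127501437, CTCF in capitals: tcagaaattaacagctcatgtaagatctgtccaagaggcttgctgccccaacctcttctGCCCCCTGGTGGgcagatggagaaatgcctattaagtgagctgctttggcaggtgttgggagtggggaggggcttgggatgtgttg
Tcf3 intron, chr10:80418391-80418570, full NFI site in capitals: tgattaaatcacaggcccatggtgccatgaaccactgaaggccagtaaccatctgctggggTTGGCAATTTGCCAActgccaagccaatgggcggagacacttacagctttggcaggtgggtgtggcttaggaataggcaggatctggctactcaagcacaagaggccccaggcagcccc
Cldn5 promoter, chr16:18776699-18776807, NFY motif in capitals: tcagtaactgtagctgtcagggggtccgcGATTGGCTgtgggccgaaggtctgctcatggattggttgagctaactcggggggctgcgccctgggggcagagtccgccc
Aqp1 promoter, chr6:55336241-55336300, short NFI motif in capitals: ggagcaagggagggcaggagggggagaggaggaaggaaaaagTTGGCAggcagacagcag

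The member in the intron of Kcnip3, which encodes a calcium-binding regulator of potassium channels, carried the CTCF match at bases 60 to 71 and a NEUROD type E-box, CAGATGG, directly beyond it at bases 73 to 79. It stood at 1.09 in height in replicate 1, at 1.36 in replicate 2, and both matches touched a footprint in each library. The member in Tcf3, which encodes an E protein that pairs with NEUROD and ASCL factors, had heights of 0.848 and 0.945. Its NFI match also touched a footprint in both libraries. Height here is the authors' own value for each region, given on a scale of the cut signal, and is used to describe and rank regions within a list.

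Heights, on which the rule rests, were low and alike in the 2 libraries. The median member had a height of 0.440 in replicate 1 and its partner a height of 0.448 in replicate 2, against 1.21 and 1.57 for strong shared regions. From the 5th to the 95th percentile, members ran from 0.258 to 0.742 in replicate 1 and their partners from 0.229 to 0.858 in replicate 2. The ratio of replicate 2 to replicate 1 had a median of 1.02 among members (5th to 95th percentile 0.705 to 1.49) and of 1.25 among strong shared regions. Of the members, 92.3% differed by less than 1.5 times. Across the 13586 members, log2 heights of the libraries correlated with a Pearson r of 0.820 and a Spearman rho of 0.814, against a Pearson r of 0.940 across the strong shared regions. The points share reference sequence and calling method, and regions are not independent samples.

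**Figure D1:**
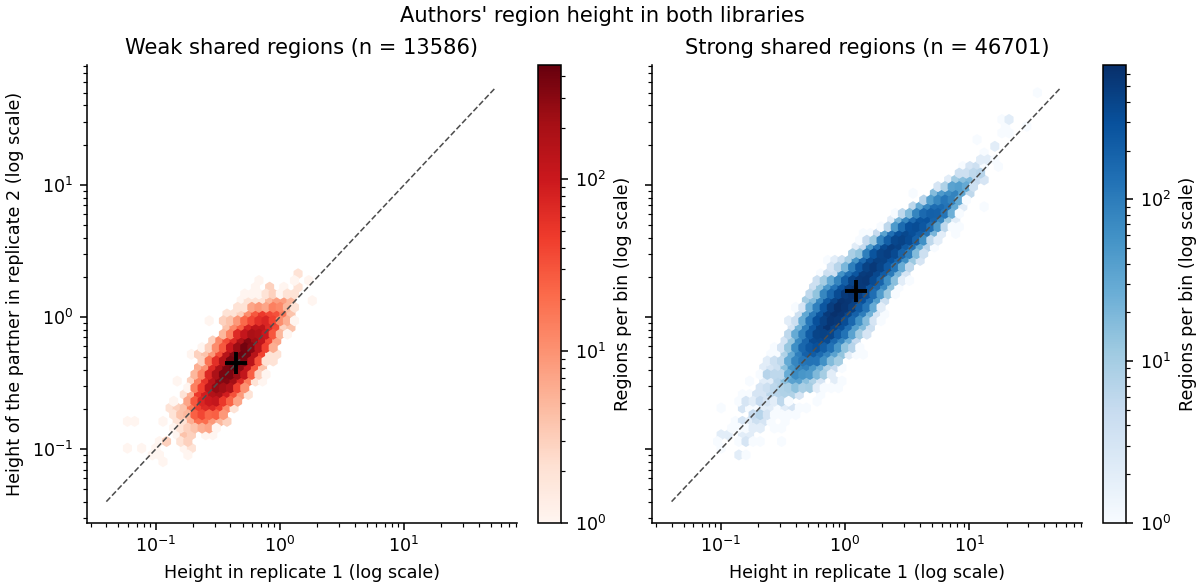
Height of each region in replicate 1 (x axis) and of its overlapping partner in replicate 2 (y axis), both on log scales, for weak shared regions (left, n = 13586) and strong shared regions (right, n = 46701). Colour gives regions per bin, the dashed line equal heights and the cross the medians, 0.440 and 0.448 for weak shared regions and 1.21 and 1.57 for strong shared regions; the weak cloud overlaps the low end of the strong one.

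The word weak describes the typical member and not all of them. Of the members, 4148 (30.5%) were higher than 0.515, the 5th percentile of the strong shared regions, and 45 were higher than 1.09, the median of the shorter list. The lowest false discovery rate per base had a median of 0.00909 among members in replicate 1 and of 0.00514 in replicate 2, against 3.45e-09 for strong shared regions in replicate 1. It reached 0.001 or lower in 909 members in replicate 1, in 1587 in replicate 2 and in 144 in both. Near the limit between the lists the classes overlapped. The 10 members with the lowest rates ran from 2.56e-42 to 1.75e-04 in replicate 1, whereas the 10 strong shared regions with the highest rates ran from 8.97e-04 to 9.83e-04. The 10 highest members had heights of 1.29 to 1.81 in replicate 1, whereas the 10 lowest strong shared regions had heights of 0.0943 to 0.132. These are the values that chose the regions.

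Members were also narrow. Their median width was 127 bp in the rows of replicate 1 and 163 bp in the rows of replicate 2, against 220 bp for strong shared regions in both. Together the members covered 1840 kb. The median overlap with replicate 2 was 94.9% of the member's length. A reciprocal overlap of 50% was met by 58.5%, which would leave 7947 members. For 341 members there was more than a single partner, and for 705 the partner in replicate 2 itself touched a shorter-list region outside the member.

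The highest members included regions inside the host transcripts of brain microRNAs. Of the 10 with the greatest mean rank of height outside chromosome 18, 3 lay in the noncoding RNA Gm3764, which contains the gene for miR-9, a microRNA of neural progenitors and neurons. They were chr3:88221781-88221940, chr3:88221661-88221707 and chr3:88222581-88222713, between 5975 and 6895 bp from the Mir9-1 hairpin. In replicate 1 they stood at 1.43, 1.35 and 1.77, and in replicate 2 at 2.17, 2.17 and 1.32. The first 2 fell in the same row of replicate 2, chr3:88221668-88222357, so 2.17 is the height of that wider row. The nearest shorter-list region lay 214, 447 and 213 bp from the 3 members. For the first 2, the wider row reached into this shorter-list region. A further 2, chr15:85687149-85687293 and chr15:85667481-85667561, lay in Lncppara, the host transcript of Mirlet7c-2 and Mirlet7b of the let-7 family, which accompanies neuronal maturation. In replicate 1 these stood at 1.46 and 1.29, and in replicate 2 at 1.77 and 1.57, at 19310 and 39042 bp from the Mirlet7c-2 hairpin. All 5 stood among other accessible regions, with 28 shorter-list regions within 50 kb at Gm3764 and 17 or 18 at Lncppara. The other 5 lay at Rhbdf1, Rara and Ifi30 and in intergenic DNA nearest to Cyb5d1 and Prr5, with heights of 1.21 to 1.36 in replicate 1 and 1.44 to 1.81 in replicate 2. Each of the 10 matched a single place in the assembled chromosomes.

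Weak shared regions were mostly distal. Of the members, 2521 (18.6%, interval 17.9% to 19.2%) lay within 1000 bp of an annotated start, and 18.1% of the rows of replicate 2 did so. Strong shared regions did so in 44.1% and 43.9% of rows. Introns held 39.6% of members against 24.6% of strong shared regions, and intergenic DNA 36.5% against 26.7%. Exons outside promoters held 731 members (5.38%) against 4.61% of strong shared regions, and 380 of these 731 touched coding sequence. In the rows of replicate 1 the promoter share of 18.6% for weak shared regions was below the 24.9% of weak regions of 1 library, but in the rows of replicate 2 the shares were 18.1% and 18.3%, with overlapping intervals. With a promoter distance of 500 bp the promoter share of members was 12.1%, and with 2500 bp 27.7%.

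**Figure D2:**
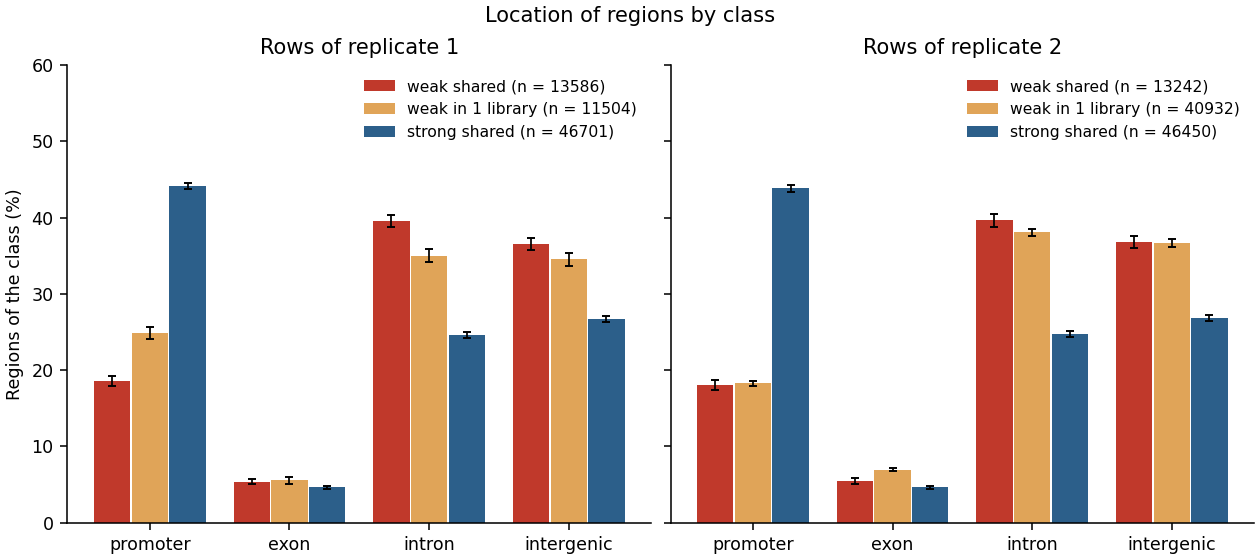
Share of regions at promoters, in exons, in introns and between genes, for weak shared regions, weak regions of 1 library and strong shared regions (bars from left to right), in the rows of replicate 1 (left) and replicate 2 (right). Lines on bars are 95% exact binomial intervals; weak shared regions had 18.6% and 18.1% at promoters, against 44.1% and 43.9% of strong shared regions.

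At promoters, weak shared regions mostly lay close to stronger ones. Of the promoter members, 61.0% lay within 1 kb of a shorter-list region, with a median gap of 579 bp. Members in introns lay at a median of 8635 bp and intergenic members at 10385 bp from the nearest shorter-list region. Over all members, 4.45% lay within 100 bp of a shorter-list region, 27.2% within 1 kb, 57.6% within 10 kb and 89.5% within 50 kb. Of the 11065 distal members, 19.5% lay within 1 kb, against 24.5% of distal weak regions of 1 library. The rows of replicate 2 gave 17.9% against 24.7%. Requiring at least 500 bp to the shorter lists left 10879 members, with 6.33% of distal members within 1 kb.

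Their base composition depended on where they lay. CpG island-like sequence, with a GC content of at least 50% and an observed over expected CpG ratio of at least 0.6, made up 7.88% of members (interval 7.43% to 8.34%) against 33.4% of strong shared regions. The rows of replicate 2 gave 6.71% against 33.6%. Among distal regions the shares were 4.68% and 6.37% in replicate 1, and 3.66% and 6.30% in replicate 2. Promoter members were CpG island-like in 21.9%. The median GC content of distal members was 51.5%, against 51.9% for distal strong shared regions and 44.4% for windows of the same length 2 kb away outside all listed regions. Repeats, counted as at least 50% soft-masked bases, filled 4.02% of members, against 1.55% of strong shared regions and 7.30% of weak regions of 1 library. Without replicate 2, using its own lists alone, replicate 1 gave a CpG share of 12.5%, and a ratio minimum of 0.75 lowered the share to 3.75%.

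Most weak shared regions held a footprint. A deposited footprint overlapped 68.9% of members in replicate 1 and 67.1% in replicate 2, and 51.0% had one in both. For strong shared regions the shares were 95%, 95.7% and 92.9%. Weak regions of 1 library had a footprint in 53.7% in replicate 1, the library that listed them, and in 3.3% in replicate 2. By definition these regions overlapped no listed region of replicate 2, whereas every member did. The contrast of 3.3% with 67.1% of members thus follows at least in part from the rule. Footprints are derived from the same cuts as the regions, and members were narrower. Per 100 bp, members held 0.806 footprints and strong shared regions 1.26 in replicate 1.

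Footprints, location, GC content and surroundings varied with height among the members, and motifs less evenly. Members were ranked by height into 10 groups of equal size. In the lowest group in replicate 1, with a median of 0.258, 34.4% held a footprint of that library and 13.2% lay at promoters. In the highest group, with a median of 0.742, 90.7% held a footprint and 27.1% lay at promoters. The mean number of shorter-list regions within 50 kb was 1.74 in the lowest group and 6.59 in the highest. Median GC content was 49.3% in the lowest group and 55.6% in the highest. CTCF matches were found in 0.736% of the lowest group and 2.50% of the highest, and NEUROD type E-boxes in 7.58% and 10.2%. The rows of replicate 2 gave footprints in 43.7% of the lowest and 90.6% of the highest group, and 2.03 and 9.04 neighbours. There CTCF matches were found in 1.36% of the lowest and 2.57% of the highest group, with 0.906% in the fifth. NEUROD type E-boxes were found in 9.74% of the lowest and 10.8% of the highest group of replicate 2, and their highest share, 12.7%, was in the eighth. Median width was 98 bp in the lowest and 156 bp in the highest group in replicate 1; the part of width in the footprint and motif shares was not tested.

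**Figure D3:**
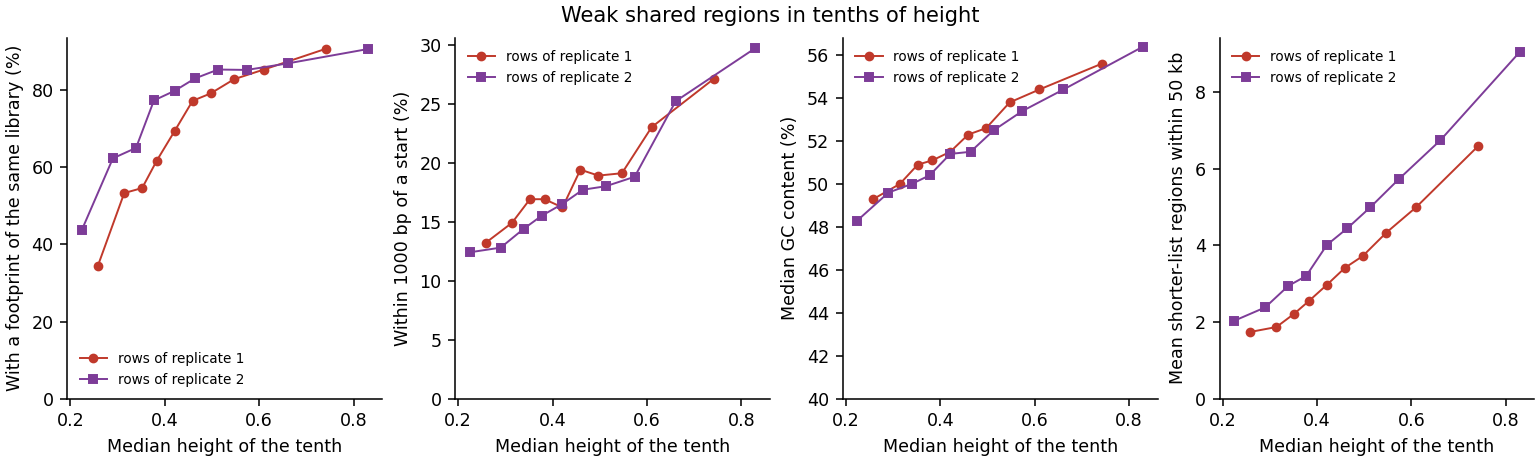
Weak shared regions in 10 groups of equal size by height, plotted at the median height of each (x axis), with rows of replicate 1 (circles) and of replicate 2 (squares). The y axes give the share with a footprint of the same library, the share within 1000 bp of a start, the median GC content (axis from 40%) and the mean number of shorter-list regions within 50 kb; in replicate 1 the footprint share was 34.4% in the lowest and 90.7% in the highest group.

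Taken as a whole, weak shared regions lay in less dense surroundings than strong ones, but at equal height the order was the other way between 0.4 and 1. Members had a mean of 3.44 shorter-list regions of the same library within 50 kb in replicate 1 and of 4.55 in replicate 2, against 4.44 and 6.01 others around strong shared regions. Height bands were chosen after values of the data had been seen. Between heights of 0.6 and 0.7 in replicate 1, members had a mean of 5.20 shorter-list regions within 50 kb, against 3.25 other such regions around strong shared regions and 6.01 around weak regions of 1 library. The same band of replicate 2 gave 6.51, against 3.64 and 8.40. Dense surroundings at equal height were thus not particular to members. Between 0.3 and 0.4 members had fewer than strong shared regions, with 2.24 against 3.53 in replicate 1 and 3.02 against 5.19 in replicate 2. In the band from 0.6 to 0.7 of replicate 1, 23.6% of members lay at promoters, against 35.1% of strong shared regions, but in replicate 2 the shares were 23.9% and 23.2%. CTCF matches in that band were found in 2.75% of members against 4.64% of strong shared regions in replicate 1, and in 3.16% against 3.92% in replicate 2. Median widths in that band were 149 bp against 220 bp in replicate 1.

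CTCF matches were several times rarer in weak than in strong shared regions. To compare equal widths, 31 consensus motifs were searched on both strands in the 150 bp around the centre of each distal region. CTCF was matched in 2.17% of distal members (interval 1.91% to 2.46%), against 14.4% of distal strong shared regions (13.9% to 14.8%) and 0.937% of distal weak regions of 1 library (0.745% to 1.16%). The rows of replicate 2 gave 2.13%, against 14.3% and 1.22%. CTCF was still more frequent than in nearby DNA: over the full length of the regions, 2.00% of distal members held a match, against 0.0426% of windows of the same length 2 kb away. That is a ratio of 46.9 (interval 24.3 to 104), against 244 for strong shared regions. In the rows of replicate 2 the ratios were 33.3 and 252. With windows 5 kb away they were 35.7 (20.1 to 70.2) for members and 139 for strong shared regions in replicate 1, and 48.9 and 136 in replicate 2.

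Most motifs other than CTCF differed less between weak and strong shared regions, and in both directions. YY1 and ZNF143 also had low ratios, but on few matches. They were matched in 0 and 1 distal members of replicate 1, against 11 and 12 distal strong shared regions. The NEUROD and ASCL type E-boxes, the short NFI motif and AP-1 were more frequent in weak shared regions. The NEUROD type E-box, CAGATGG, was found in 11.6% of distal members (11% to 12.2%), against 10.3% of distal strong shared regions (9.95% to 10.7%) and 9.56% of weak regions of 1 library. The ASCL type E-box, CAGCTG, was found in 18%, against 16.1% and 14.7%. The short NFI motif, TTGGCA, was found in 21.6%, against 18.1% and 19.3%. AP-1, the TGANTCA site of FOS and JUN dimers that neuronal activity induces, was found in 6.18%, against 4.56% and 5.98%. For these 4 motifs the intervals of weak and strong shared regions did not overlap in replicate 1. In the rows of replicate 2 the shares for weak and strong shared regions were 11.3% and 9.93% for NEUROD and 17.9% and 16% for ASCL. They were 21.2% and 17.6% for NFI, and 6.26% and 4.41% for AP-1. Weak regions of 1 library there had 8.41%, 17.4%, 15.9% and 5.68%. Their ASCL interval, 17.0% to 17.9%, overlapped that of members, 17.2% to 18.6%. For AP-1 the intervals of these 2 classes overlapped in both replicates, with 5.49% to 6.50% against 5.74% to 6.65% of members in replicate 1. An AP-1 share above that of strong shared regions was thus not particular to members. Motifs of other factor classes were higher in members by as much or more: the ratio of the share in weak to that in strong shared regions was 1.5 for GATA, 1.48 for the POU octamer, 1.41 for PU.1 and 1.35 for the TAATTA homeodomain motif in replicate 1. In the rows of replicate 2 these ratios were 1.40, 1.37, 1.35 and 1.34. For GATA, POU, PU.1 and TAATTA the intervals of members and of weak regions of 1 library overlapped in replicate 1. In replicate 2 they overlapped for GATA and PU.1 only. Other motifs of factors active in neurons were lower in members, with ratios of 0.9 and 0.842 for MEF2, 0.903 and 0.778 for NR4A, 0.777 and 0.938 for CRE and 0.442 and 0.412 for EGR in replicates 1 and 2. Of these, EGR was matched in 6 and CRE in 30 distal members of replicate 1. For all 4 the intervals of weak and strong shared regions overlapped in both replicates. The SP and KLF motif, GGGGCGGGG, was lower without overlap, at 0.578% (0.446% to 0.738%) against 0.977% (0.861% to 1.10%) in replicate 1.

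Among regions without CTCF the 4 motifs were again more frequent in members, but the differences for ASCL, the short NFI motif and AP-1 were smaller. Leaving out all regions with a CTCF match, a step chosen after the values had been seen, gave 11.4% of members against 10.1% of strong shared regions for NEUROD in replicate 1. It gave 18.2% against 17.1% for ASCL, 21.9% against 19.8% for the short NFI motif and 6.15% against 4.80% for AP-1. The short RFX motif, GTTGCCA, differed little, with 5.04% against 4.89%. Centres of wide regions need not be the points of most cutting, and the effect of this on the shares was not tested.

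**Figure D4:**
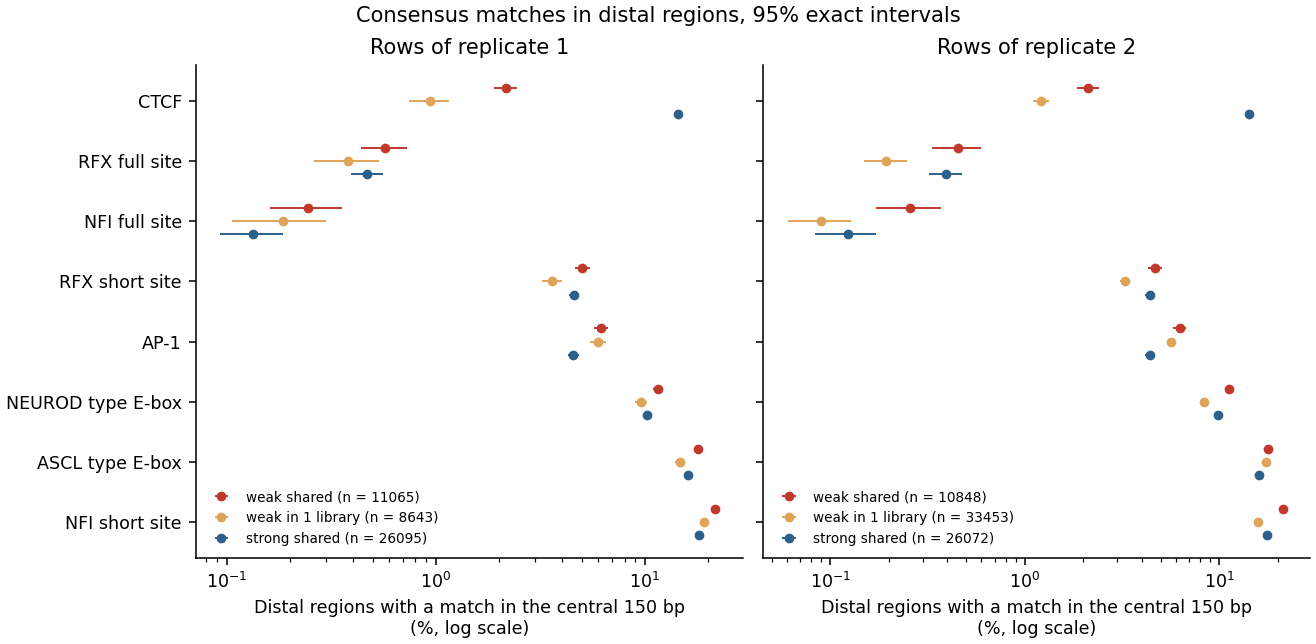
Share of distal regions with a match in the central 150 bp (x axis, log scale) for 8 consensus motifs, in weak shared regions, weak regions of 1 library and strong shared regions (top to bottom in each row), with 95% exact binomial intervals, for rows of replicate 1 (left) and replicate 2 (right). CTCF stands apart at 2.17% of weak against 14.4% of strong shared regions in replicate 1, whereas the other motifs lie close together.

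The full sites for dimers were rare but stood far above their surroundings. The full RFX site, an inverted repeat of the short motif, was found in 0.569% of distal members in the central window (0.438% to 0.728%), against 0.471% of strong shared regions (0.392% to 0.562%). Over full lengths the ratio of members to windows 2 kb away was 21 (8.48 to 67.3) in replicate 1 and 8.57 in replicate 2. The full NFI site, TTGGC and GCCAA separated by 5 bases, was found in 0.244% of members (0.161% to 0.355%), against 0.134% of strong shared regions (0.0934% to 0.186%). Only 1 of 21135 neighbouring windows held it, so its ratio of 43.9 has an interval of 7.13 to 1810. For both full sites the intervals of weak and strong shared regions overlapped in replicate 1.

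Against windows 2 kb away, motifs of several factor groups were more frequent in distal members. The ratio was 3.98 (3.59 to 4.41) for the NEUROD type E-box, 2.90 (2.70 to 3.13) for the ASCL type E-box, 2.97 (2.78 to 3.18) for the short NFI motif and 3.61 (3.11 to 4.21) for the short RFX motif. The same ratios for strong shared regions were 2.50, 2.17, 2.23 and 2.68. As with the CTCF ratios, full lengths were searched, and strong shared regions were wider, with a median of 220 bp against 127 bp. Their windows were wider too, and 5.16% of them held the NEUROD type E-box, against 2.60% of windows beside members. The part of width in the difference between these ratios was not tested, so they do not rank the classes. CRE, the TGACGTCA site of CREB, had a ratio of 3.32 (1.83 to 6.18) and AP-1 a ratio of 1.40 (1.26 to 1.55). PU.1, the GAGGAAGT site of a microglial and blood-cell factor, had a ratio of 1.43 (1.14 to 1.80). Ratios below 1 were found for the TAATTA homeodomain motif, at 0.717 (0.630 to 0.815), MEF2, at 0.732 (0.608 to 0.876), the AGATAAG site of GATA factors, at 0.484 (0.383 to 0.605), the AAAGGTCA site of NR4A receptors, at 0.413 (0.278 to 0.598) and the AGGTGTGA site of TBR1, at 0.442 (0.282 to 0.671). The windows had a median GC content of 44.4% against 51.5% in distal members, and the part of this difference in the ratios was not tested. REST and YY1 consensus sequences were matched in 0 of 11065 distal members, which allows a share of up to 0.0271%. REST was matched in 1 and YY1 in 12 of 26095 distal strong shared regions, and both in 0 of 21135 windows beside members. The count of 0 for REST thus says nothing particular about members.

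Of 6 motifs examined for footprints, CTCF and the full sites were touched most often. In distal members, 65.2% of 221 CTCF matches touched a footprint of replicate 1 and 72.4% a footprint of replicate 2. Of 56 full RFX matches, 57.1% and 50% did so, and of 23 full NFI matches, 69.6% in both libraries. Of 1223 NEUROD type matches, 28.5% and 24.6% did so, and of 1981 ASCL type matches, 18.4% and 17.9%. AP-1 was lowest, with 13.1% and 14.2% of 641 matches. Footprints covered 8.01% and 8.41% of the bases of distal members, so a match of several bases touches one by position alone at more than these rates. In strong shared regions, where footprints covered 18.4% and 22.1% of bases, 98.5% and 99.2% of CTCF matches and 46.7% and 49.7% of NEUROD type matches were touched.

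Few genes had a weak shared region as the only sign of an open promoter. Of 20807 protein-coding genes on chromosomes 1 to 19, 233 (1.12%) had a member within 1000 bp of a start and no shorter-list region of either library there. Of 9426 long noncoding RNA genes, 205 (2.17%) did. Among genes without a shorter-list region at any start, these were 3.26% of coding and 3.14% of noncoding genes. In 1561 coding genes both a member and a shorter-list region lay within 1000 bp of a start, at the same start or at different ones. Thus 1794 genes (8.62%) had a member at a promoter at all, and 13660 had a shorter-list region at one. The count of 233 became 127 with a reciprocal overlap of 50%, 124 with the higher 50% of members, 913 without replicate 1 and 1086 without replicate 2, where each library's own lists alone were used.

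The highest weak-only promoters outside chromosome 18, picked after their values had been seen, belonged to genes of varied roles. The member at Rhbdf1, an inactive rhomboid protease, was chr11:32216974-32217112, 205 bp from a start, with heights of 1.32 in replicate 1 and 1.81 in replicate 2. At Rara, the retinoic acid receptor alpha, the member chr11:98937513-98937712 overlapped an annotated start and untranslated exon sequence of the gene, with heights of 1.21 and 1.54. At Kdm6b, a demethylase of histone H3, the heights were 1.27 and 1.26, and at Kcnj9, a subunit of G protein-gated potassium channels, 1.29 and 1.02. Members at Abhd15, Rtn4rl2, Pygm, Sh2d6, Gpr61 and Panx2 had heights of 0.748 to 1.29 in replicate 1 and 1.00 to 1.40 in replicate 2. Several of these genes have more than 1 annotated start, 8 in all for Rhbdf1 and 7 for Rara, and no start of these genes carried a shorter-list region.

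Among 20 lists of cell type and control genes, 3 held genes with a weak-only promoter. The share over all coding genes was 1.12%, so a count of 0 or 1 in lists of 7 to 39 genes is near that share and says nothing particular about a list. In the endothelial and mural list 1 of 15 genes had one, Cldn5, the tight-junction protein of brain vessels. The Cldn5 region printed above lay 40 bp upstream of the start, with heights of 0.509 in replicate 1 and 0.366 in replicate 2 and a footprint in replicate 1 only, and the nearest shorter-list region was 22113 bp away. In the ependymal and choroid plexus list 1 of 9 genes had one, Aqp1, the water channel of choroid plexus epithelium. Its region lay 132 bp upstream of the start, with heights of 0.471 and 0.415 and footprints in replicate 2 only, 16241 bp from the nearest shorter-list region. Of 1087 olfactory receptor genes, 5 (Olfr1499, Olfr967, Olfr287, Olfr571 and Olfr243) had one, with heights of 0.207 to 0.321 in replicate 1 and 0.158 to 0.268 in replicate 2. The regions at Olfr287 and Olfr243 each matched 2 places in the assembly, so their signal is uncertain. The regions at Olfr967 and Aqp1 each matched a single place, but 91.2% and 73.3% of their bases were soft-masked as repeats. In the other 17 lists, which cover neurons, glia, progenitors, immediate early genes, blood, liver, muscle, Hox and housekeeping genes, the count was 0.

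Astrocyte genes often had weak shared regions at a promoter. A member lay at a promoter in 7 of 13 astrocyte genes. A shorter-list region lay at a promoter in 12 of the 13, though not always at the same start as the member. The share was 8.62% among all coding genes and 11.4% among the 13660 with a shorter-list region at a promoter. Slc1a2, a glutamate transporter, had a pair of them, at 0.723 and 0.647 in replicate 1, and at 0.869 and 0.858 in replicate 2, both within 257 bp of a shorter-list region. Glul, glutamine synthetase, had a member over a start with heights of 0.578 and 0.765 in replicates 1 and 2. Gfap, the astrocyte intermediate filament, had a member at chr11:102896841-102896920, 211 bp from an internal start and 1630 bp from a shorter-list region, with heights of 0.578 and 0.923. Fgfr3, a growth factor receptor, had a member near an internal start, 2589 bp from a shorter-list region, with heights of 0.886 and 0.885. Slc1a3, Gja1 and Nfia, which encode a glutamate transporter, a gap junction protein and an NFI factor, had heights of 0.484 to 0.591 in replicate 1 and 0.377 to 0.524 in replicate 2.

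Immediate early genes, which neuronal activity switches on, showed members at 5 of 16 promoters, against 8.62% of all coding genes and 11.4% of those with a shorter-list region at a promoter. At Arc, a synaptic plasticity gene, chr15:74673479-74673628 lay 909 bp upstream of the start, with heights of 0.855 and 0.945 and 3 and 2 footprints in replicates 1 and 2. At Npas4, an activity-dependent transcription factor, the member lay 651 bp upstream, with heights of 0.515 and 0.666. Btg2, Egr2 and Nr4a3 had members with heights of 0.402 to 0.610 in replicate 1 and 0.574 to 0.874 in replicate 2. All 16 genes of this list had a shorter-list region at a promoter.

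Progenitor genes had members at 4 of 12 promoters, set beside the same 8.62% of all coding genes and 11.4% of those with an open promoter, as all 12 had. Nes, the progenitor intermediate filament, had a member over its start, chr3:87970930-87971153, with heights of 1.09 in replicate 1 and 1.13 in replicate 2, while the nearest shorter-list region lay 600 bp away. At Sox2, a stem cell transcription factor, the heights were 0.591 and 1.04, so the libraries differed by more there. Mki67 and Fabp7 members had heights of 0.409 to 0.421 in replicate 1 and 0.333 to 0.464 in replicate 2. Astrocyte, progenitor and immediate early genes had the highest shares among the lists. Pan-neuronal genes had 3 of 11, Cajal-Retzius 2 of 8, CA3 2 of 9, dentate granule 2 of 12 and oligodendrocyte genes 2 of 13. Endothelial and mural genes had 2 of 15, interneuron 2 of 18, ependymal 1 of 9, glutamatergic 1 of 12, housekeeping 1 of 13, microglial 1 of 15 and CA1 genes 0 of 7. Hepatocyte genes had a member at 0 of 13 promoters, muscle genes at 0 of 12, blood genes at 0 of 12 and Hox genes at 0 of 39. These lists also had few open promoters, 1, 2, 2 and 7 genes, so a member in a gene with an open promoter could seldom arise.

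**Figure D5:**
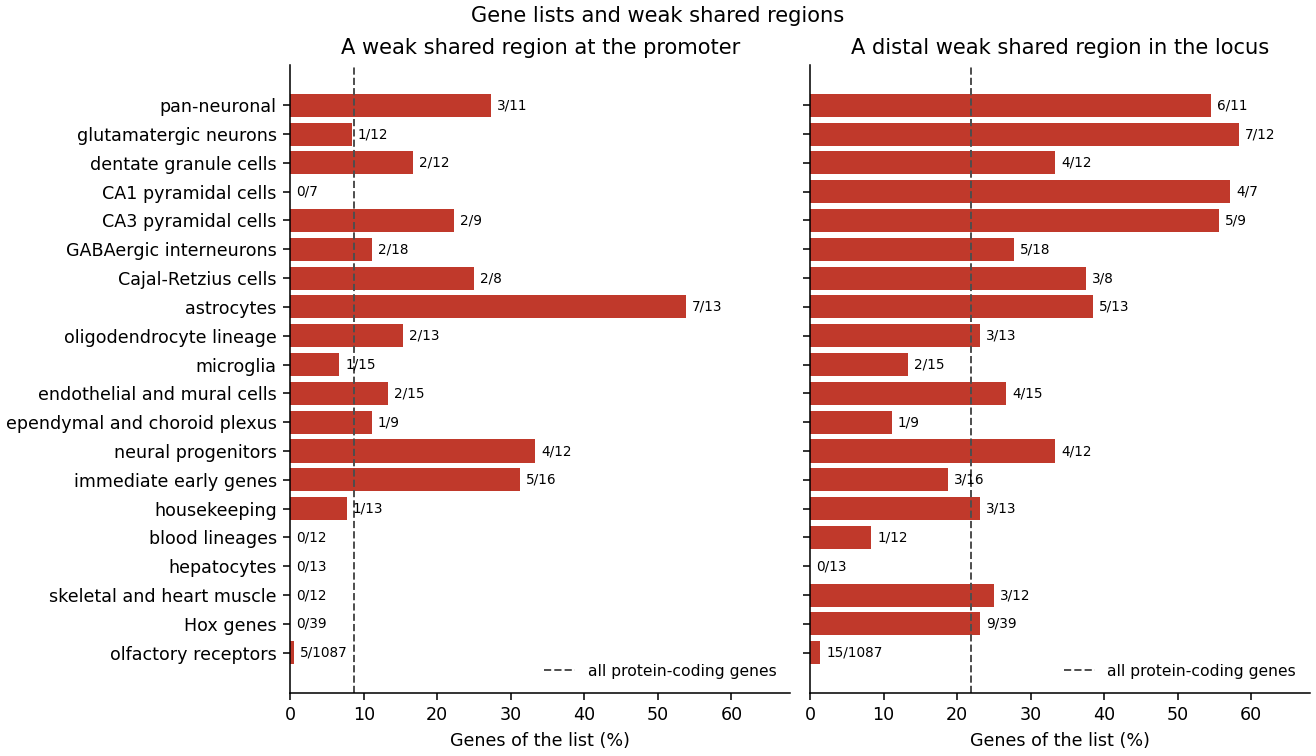
Share of the genes in each list with a weak shared region within 1000 bp of a start (left) or with a distal one in the gene body and the 10 kb on either side (right), with gene counts at the bars. The dashed line is the share of all protein-coding genes, 8.62% and 21.9%; astrocyte genes reached 7 of 13 on the left and glutamatergic neuron genes 7 of 12 on the right.

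Many neuronal marker genes held a distal weak shared region in their locus. A locus was the gene body and the 10 kb on either side, and 4551 of 20807 coding genes (21.9%) held a distal member. It was 7 of 12 genes of glutamatergic neurons (58.3%), 6 of 11 pan-neuronal genes (54.5%), 4 of 7 genes of CA1 and 5 of 9 genes of CA3 pyramidal cells. Shares were lower for dentate granule cell genes, at 4 of 12 (33.3%), and Cajal-Retzius cell genes, at 3 of 8 (37.5%). Interneuron genes had 5 of 18, astrocyte genes 5 of 13 and microglial genes 2 of 15. Control lists were not all low. Muscle genes had 3 of 12, Hox genes 9 of 39 and housekeeping genes 3 of 13, slightly above the 21.9% of all coding genes. Blood genes had 1 of 12, hepatocyte genes 0 of 13 and olfactory receptors 15 of 1087 (1.38%). Loci of neighbouring genes overlap, so the same member can count for several genes. It did so at Hoxa3, Hoxa4, Hoxa5 and Hoxa6, and at the pan-neuronal genes Nefm and Nefl. The 9 Hox genes thus do not stand for 9 separate members. Median locus length was 34.6 kb for glutamatergic, 72.2 kb for pan-neuronal and 170 kb for CA3 genes, against 37.6 kb for all coding genes; the part of length in these shares was not tested.

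Several marker loci held more weak than strong shared regions. Grin2b, a glutamate receptor subunit, had 5 distal members against 3 distal strong shared regions, and Syt1, the calcium sensor of transmitter release, 4 against 1. Nfia had 8 against 4. Prox1, the fate factor of dentate granule cells, had 2 against 0, and Fezf2, a cortical projection neuron factor, also 2 against 0. The opposite was seen at Rbfox3, an RNA-binding protein of mature neurons, with 5 against 11, and at Grik4, a kainate receptor subunit, with 3 against 10. Over all coding genes, weak shared regions were 27.4% of weak and strong shared distal regions counted in loci. The share was 50% for CA1, 44.7% for glutamatergic, 37.1% for CA3, 35.0% for pan-neuronal and 32.0% for interneuron genes. Higher shares were not particular to neuronal lists. Housekeeping genes had 33.3%, progenitor genes 31.6%, astrocyte genes 30.8%, endothelial and mural genes 29.2% and Hox genes 29.0%. Counts were small, with 9 members against 9 strong shared regions for CA1, 8 against 17 for interneuron and 3 against 6 for housekeeping genes. A region in overlapping loci was counted for each gene, as at the Hox genes. The share was 26.9% for dentate granule cell genes, where Prox1 is listed and where 7 distal members stood against 19 distal strong shared regions, 14.3% for Cajal-Retzius cell genes and 12.5% for immediate early genes.

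The genes with most members were long, and many of them are known from neurons. Annotation of Gm20388 and Fgfr2 spans 71 and 29 other coding genes, so their counts of 44 and 29 do not describe a single gene. Among those that followed were Lsamp with 14 members and 17 strong shared regions, Nav2 with 13 and 22, Zbtb20 with 13 and 10, Asic2 with 12 and 24, Opcml with 12 and 11, Auts2 with 11 and 31, and Kalrn with 11 and 18. Lsamp and Opcml encode neural adhesion proteins of the IgLON family, Zbtb20 a repressor needed for hippocampal pyramidal cell identity and Kalrn a synaptic exchange factor. Lsamp spans 2197 kb and Kalrn 604 kb. Macrod2, Sox5 and Tenm2 had 11 members each, as had Gm37240, which spans 6 other coding genes. Zbtb20, Opcml and Sox5 held more weak than strong shared regions.

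Some genes held members almost alone, as found by sorting genes with 5 or more members after the values had been seen. Stk10 had 6 members and 1 strong shared region, Prlr, the prolactin receptor, 5 and 1, and Cuta 5 and 1. Egfem1 and Gnaq, a G protein subunit, had 7 and 2, and Fgf9, a growth factor, and Synpr, a synaptic vesicle protein, had 6 and 2.

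Dense windows were of both kinds. The 3 windows of 100 kb with most members held 8 each, at Nfic with 23 strong shared regions, at Skida1 and Mllt10 with 16, and at Lhx2, a homeobox factor of hippocampal patterning, with 7. Windows with 7 members were found at Epha4, an ephrin receptor, with 4 strong shared regions, at Stk10 with 2, at Fgf9 with 3, and at chr17:29700001-29800000 with 10. A further 2, at Nbea and Mab21l1 on chromosome 3 and at chr11:71900001-72000000, where no coding gene is annotated, held 7 members and 0 strong shared regions. The window at Nr2e1, a receptor of neural stem cells, had 6 members and 4 strong shared regions.

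Chromosomes differed little in their share of members. Members made up 12.6% of longer-list rows of replicate 1 on chromosome 11 and 17.0% on chromosome 18, the lowest and highest values. Per megabase, there were 4.65 members on chromosome 14 and 6.70 on chromosome 11, while strong shared regions numbered 14.7 on chromosome 3 and 28.8 on chromosome 11. The chromosome densest in strong shared regions was also densest in members, over a narrower range.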

How the data were processed

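DNase-seq signal and false discovery rates were analysed for 2 libraries of 1 group. Per the labels the assembly is mm10. For each library the authors deposited a shorter and a longer list of regions with a signal height per region, footprints, and p-values adjusted as a false discovery rate at each base, listed only below 0.05. Every deposited footprint carries the same p-value, 0.01, which was taken as the authors' limit. Caller, versions, thresholds, normalisation and read depth are unknown here, and region lists were made per library per the notes deposited with each sample.

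Members and lists were chosen with earlier results of these data known. Overlap needed 1 bp. Starts, exons and genes came from GENCODE mouse M21, and sequence from GRCm38.p6. Shares were described with exact 95% intervals and no test was made. Distal means over 1000 bp from every start. Windows of equal length lay 2 kb to either side, outside all regions of the 4 lists. Motifs were exact consensus matches on both strands. Their overlaps with each other were not removed: the short motifs can lie within the full NFI and RFX sites. Copies were counted with BLAST 2.17.0 at 90% identity over 90% of the length. Interval functions were tested on simulated data against bedtools 2.31.1. Python 3.11.15, NumPy 2.4.6, pandas 2.3.3 and SciPy 1.17.1 were used. Named regions were the 10 highest members, the highest distal member per motif with footprints in both libraries and weak-only promoters of list genes. Named genes were among those with most members, and named windows the densest of 100 kb. Chromosome 18 was left out of the named regions, and not all regions and genes under the rule are reported here. Alternatives covered the rows of replicate 2, reciprocal overlap of 50%, the higher 50% of members, a gap of 500 bp, other promoter, flank and CpG limits, and each replicate alone.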

Additional observations from a re-analysis of the deposited data

How the results depend on the processing

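The number of members was 13242 in the rows of replicate 2 and 10879 with a gap of at least 500 bp to the shorter lists, but 7947 with a reciprocal overlap of 50% and 6838 in the higher 50% by height. With a reciprocal overlap of 50%, the promoter share was 15.0%, the footprint share 75.5%, the CpG island-like share 5.91%, the CTCF share 2.66% against 1.86% of all members by the rule as given, the share of distal members within 1 kb of the shorter lists 14.9% and weak-only coding genes 127. In the higher 50% by height these were 21.5%, 82.9%, 9.10%, 2.33%, 20.4% and 124, with 3.42% soft-masked. With the gap of 500 bp they were 12.6%, 70.0%, 5.77%, 2.22% and 6.33%, and weak-only genes were 232. In the rows of replicate 2 the footprint share was 75.9%, the CpG share 6.71% and the share within 1 kb 17.9%. Promoter distances of 500 and 2500 bp gave promoter shares of 12.1% and 27.7%, and a CpG ratio of at least 0.75 gave 3.75%.

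Each library was left out by using the lists of the other alone. This dropped the demand for a partner and also the exclusion by the shorter list of the library left out. Rows overlapping that shorter list could thus enter. The sets held 39540 to 56996 members, with promoter shares of 18.1% to 25%, footprint shares of 66.4% to 67.3% and CpG shares of 7.43% to 12.5%. Soft-masked shares were 4.71% to 5.66%, CTCF shares 1.34% to 2.27%, shares within 1 kb 16.1% to 21.7% and weak-only genes 913 to 1086. The low ends of the CpG, CTCF, promoter and footprint ranges and the high ends of the others, except weak-only genes, were without replicate 1. With a library left out, 15 values moved by more than their interval or 1.5 times and 1 did not. Of 40 values under the other settings, 26 moved by that much and 14 did not. The causes were not tested. No paired analysis was possible because there was 1 group. Depth is unknown, so no limit of detection can be given for a region that only 1 library lists.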
